A study of Mus musculus with 2 samples.

Results

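The 35 genes described here encode the enzymes of glycolysis, the enzymes that turn pyruvate into lactate or feed it to the mitochondrion, the carriers of glucose and lactate, and regulators and targets of the response to low oxygen. They were taken by symbol from a list of these pathways, with no threshold on their values. Probe sets that the platform annotation pairs with 1 gene symbol measured 32 of the 35, through 68 probe sets, out of 18193 genes named in this way. Gpi1 and Eno1 had no such probe set, and the probe sets of Gapdh carry several symbols each. Total RNA came from the mouse embryonic stem (ES) line E14, from 2 clones with overexpression of the transcription factor Klf5. Both were kept undifferentiated in ES medium with 15% FBS and LIF, the cytokine that sustains self-renewal. Each clone is a separate line read on 1 Affymetrix array, so they form 1 group with n = 2; the labels name no promoter for the transgene and do not say whether the clones were grown or hybridised together. The wild-type ES clones to which the study compares them were not analysed here, so no value below is a change caused by Klf5.

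Glycolysis splits glucose into pyruvate in the cytosol. Pyruvate is then reduced to lactate and exported with a proton, or enters the mitochondrion and is oxidised by the pyruvate dehydrogenase complex, which pyruvate dehydrogenase kinases switch off. When oxygen is low, prolyl hydroxylases no longer mark the transcription factor HIF1A for destruction, and it raises many genes of glycolysis and lactate export, as well as Pdk1 and genes of its own feedback. Several steps are catalysed by alternative isoforms from separate genes, and ES cells are known for a high rate of glycolysis even in the presence of oxygen.

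Klf5 itself was read at 11.61 in clone 1 and 12.25 in clone 2 on the log2 scale by its brightest probe set. A background level was set on each array from 67 probe sets of 41 adult tissue genes, such as those of milk, lens and pancreas. Their 95th percentile was 7.04 in clone 1 and 6.78 in clone 2. All 8 ES cell markers listed were above it in both clones. Of 8 fibroblast markers 2 were (Thy1 and Pdgfrb, neither specific to fibroblasts), while the collagen genes Col1a1, Col1a2 and Col3a1 were not. Among 4 measured blood and endothelial markers 2 passed in both clones, Gata1 and Pecam1, and of 6 primitive endoderm markers Sox17 passed in clone 2 alone. With 1 array per clone there is no test of any difference between them, and no p-value is given. A difference is clone 2 minus clone 1 on the log2 scale, and the rule of size was 2-fold or more where the brighter clone exceeded its background. Signals of different probe sets depend on the probes and were not ranked against each other.

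The promoters of these genes were searched for the letters ACGTG and GCGTG, which form the core of hypoxia response elements, on both strands in the 250 bases before each start site listed by RefSeq (assembly GRCm38.p6). A CACGTG is counted as 2 overlapping matches. The table held 48 windows for 34 of the 35 genes, some of which overlap, and none for Slc2a3. At least 1 match was found in 37 windows (77.1%), against 59.0% of the 8354 windows of genes above background in both clones and 38.6% of all 32851 windows. In 5 windows there were 4 or more matches (10.4%, against 5.48% and 2.58%). These 5 are shown because they hold the most matches of any window of the genes, a choice made after the counts were seen, and because they belong to 2 named hypoxia targets, to the gene of lactate production, to a kinase that blocks pyruvate oxidation and to the gene that, of the 30 above background, differed most between the clones. Capitals mark the matches.
Bnip3 (GRCm38.p6, chr7:138909507-138909756, minus strand): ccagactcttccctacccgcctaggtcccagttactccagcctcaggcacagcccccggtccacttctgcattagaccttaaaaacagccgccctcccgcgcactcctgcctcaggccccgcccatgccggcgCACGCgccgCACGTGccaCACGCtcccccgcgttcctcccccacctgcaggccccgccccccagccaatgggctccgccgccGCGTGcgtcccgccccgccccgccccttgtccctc
Ldha (GRCm38.p6, chr7:46845554-46845803, plus strand): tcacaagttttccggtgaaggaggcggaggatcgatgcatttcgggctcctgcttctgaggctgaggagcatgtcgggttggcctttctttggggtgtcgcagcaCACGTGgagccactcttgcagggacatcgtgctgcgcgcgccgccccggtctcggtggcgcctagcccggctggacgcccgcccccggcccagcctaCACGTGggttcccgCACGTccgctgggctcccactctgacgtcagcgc
Ankrd37 (GRCm38.p6, chr8:45999851-46000100, minus strand): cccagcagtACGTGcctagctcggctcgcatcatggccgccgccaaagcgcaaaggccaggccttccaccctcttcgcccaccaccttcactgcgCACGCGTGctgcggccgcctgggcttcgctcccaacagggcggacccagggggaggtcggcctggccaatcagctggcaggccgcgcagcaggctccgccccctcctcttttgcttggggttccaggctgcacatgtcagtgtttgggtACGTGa
Pdk3 (GRCm38.p6, chrX:93832151-93832400, minus strand): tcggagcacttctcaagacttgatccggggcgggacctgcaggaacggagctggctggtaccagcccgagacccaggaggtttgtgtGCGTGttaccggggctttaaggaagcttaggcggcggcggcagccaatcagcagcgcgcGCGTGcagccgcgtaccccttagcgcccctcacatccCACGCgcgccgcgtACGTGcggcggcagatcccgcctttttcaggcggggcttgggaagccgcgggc
Slc16a1 (GRCm38.p6, chr3:104638414-104638663, plus strand): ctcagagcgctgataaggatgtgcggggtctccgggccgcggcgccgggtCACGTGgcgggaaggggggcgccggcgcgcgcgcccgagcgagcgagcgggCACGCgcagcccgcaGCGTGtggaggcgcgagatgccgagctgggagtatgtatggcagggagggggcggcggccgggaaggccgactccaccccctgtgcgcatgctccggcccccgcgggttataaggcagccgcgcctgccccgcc
The matches of Bnip3 began 35 to 117 bases before the start and those of Slc16a1 134 to 200 bases before it. The letters CACCC, the core of sites bound by Klf factors, were found in 64.6% of the windows of these genes, in 56.2% of those of genes above background and in 52.0% of all windows. A match of letters is a description of the sequence and not a measured site.

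Nearly the whole pathway was above background. Of the 32 measured genes 30 (93.8%) passed in both clones and 2, Eno2 and Pdk2, in neither; over all 18193 genes the share was 43.5%. No member passed in 1 clone alone. In RNA of bulk cultures, expression in fewer cells and less RNA per cell cannot be told apart. Of the 68 probe sets, 56 were above background in both clones, 4 in 1 clone and 8 in neither.

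**Figure D1:**
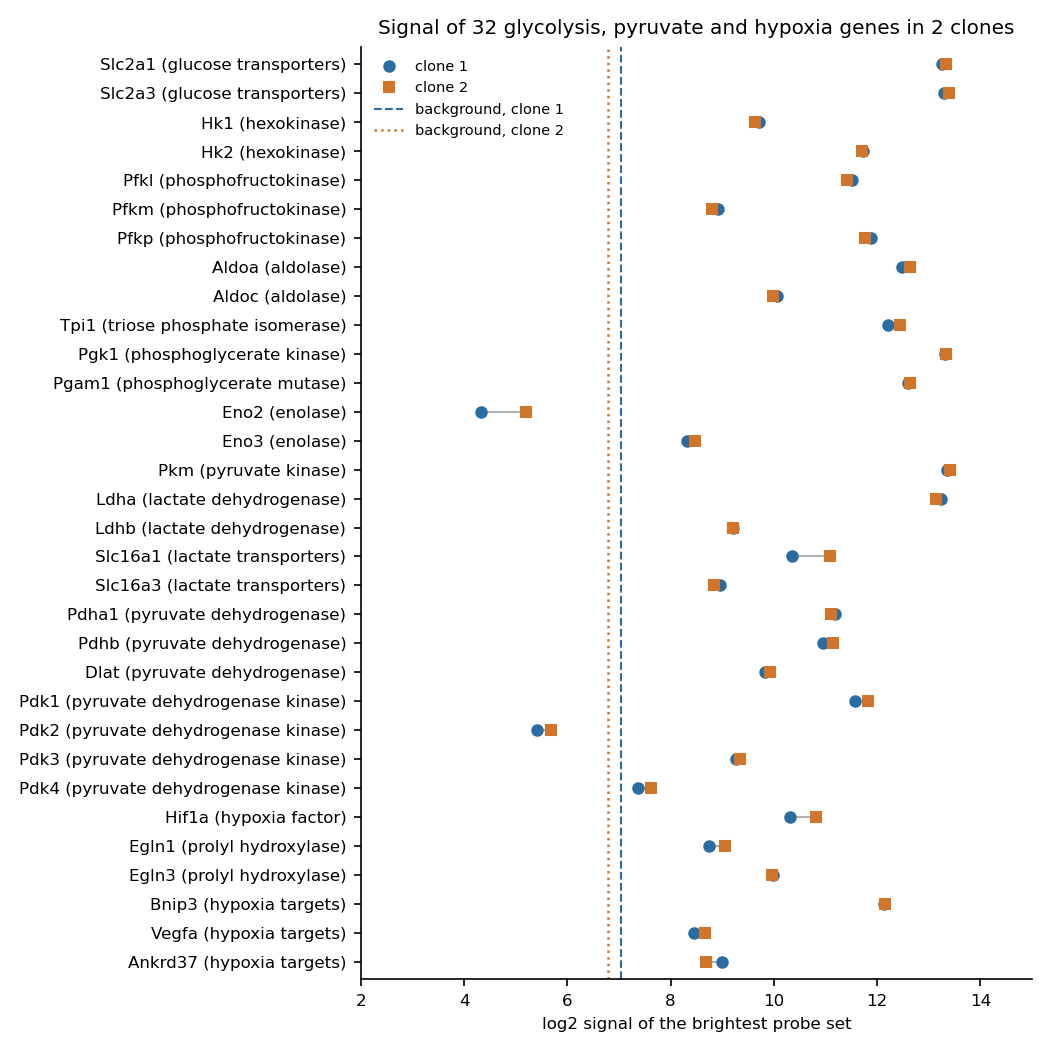
Signal of the brightest probe set of each of the 32 measured genes (log2, horizontal axis), with clone 1 as circles and clone 2 as squares; the vertical lines are the background levels of 7.04 and 6.78. All genes but Eno2 and Pdk2 lie to the right of both lines, and the symbols of the clones are farthest apart in Eno2, Slc16a1 and Hif1a.

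Glucose enters ES cells through facilitative carriers, and 3 of the 8 measured genes of this family were above background in both clones. Slc2a1 (GLUT1), the common carrier of dividing cells, gave 13.25 in clone 1 and 13.33 in clone 2. Slc2a3 (GLUT3), a carrier of high affinity, gave 13.30 and 13.40. The third was Slc2a8. Slc2a2 and Slc2a4, the carriers of liver and pancreas and of muscle and fat, were not above background, and neither were Slc2a6, Slc2a10 and Slc2a12. The other probe sets of Slc2a1 differed by 0.25 and 0.33, in the same direction as the brightest, whereas the 4 of Slc2a3 ran from -0.19 to 0.10.

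Hexokinases trap glucose in the cell as its phosphate. Hk1, the broadly expressed form, was 9.71 in clone 1 and 9.63 in clone 2, and Hk2, the form typical of muscle and of proliferating cells, was 11.72 and 11.70. A second probe set of Hk1 gave 8.83 and 9.0, the opposite direction to the brightest. Hk3 and Hkdc1 were not above background; Hkdc1 lies next to Hk1 on chromosome 10 with no protein-coding gene between them. Phosphofructokinase, which commits sugar to glycolysis, can be built from liver, muscle and platelet type subunits, and the genes of all 3 were above background. Pfkl gave 11.52 and 11.41, Pfkm 8.91 and 8.80, and Pfkp 11.88 and 11.76. All 3 subunit genes were thus slightly lower in clone 2, by 0.11, 0.11 and 0.12. They remained lower under quantile and loess normalization, whereas median centring left differences near 0, of -0.02, -0.02 and -0.03. The second probe sets of Pfkl (10.83 and 10.80) and Pfkp (10.73 and 10.44) were lower in clone 2 too, while those not above background in both clones were higher (4.58 and 5.07 for Pfkl, 6.78 and 6.99 for Pfkp). With its probe sets averaged, that not above background included, the difference of Pfkl was 0.12. Differences at least as large as those of the brightest probe sets were found in 51.6% to 67.3% of the genes whose mean signal lay within 0.5 of theirs.

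Of the enzymes from aldolase to pyruvate kinase, every member measured except Eno2 was above background in both clones. Aldoa, the main aldolase outside liver and brain, was 12.48 in clone 1 and 12.64 in clone 2, and Aldoc, the brain form, 10.07 and 9.99. The other probe set of Aldoc was not above background, at 3.06 and 3.07. Tpi1, which interconverts the triose phosphates, gave 12.22 and 12.44, and its 3 probe sets differed by 0.04 to 0.28. Pgk1, the first of the ATP-yielding enzymes of the pathway and a gene of the X chromosome, was 13.32 and 13.34, with its other probe sets at -0.10 and 0.09. Pgam1, the mutase that follows it, was 12.59 and 12.64. Their germ cell and muscle counterparts Pgk2 and Pgam2 were not above background. The muscle enolase gene Eno3 was above background, at 8.31 and 8.48, and the neuronal Eno2 was not, at 4.32 and 5.19; the ubiquitous Eno1 was not measured. Eno2 lies close to Tpi1 on chromosome 6, with 2 protein-coding genes between them. Pyruvate kinase was read for Pkm at 13.35 and 13.42 by 1 probe set, and the splice form it reads was not determined. Pklr, the liver and red cell gene, passed in clone 1 alone, at 7.07 against 6.76.

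Lactate dehydrogenase is a tetramer of the subunits encoded by Ldha, which favour lactate production, and Ldhb. Ldha was 13.24 in clone 1 and 13.15 in clone 2, and Ldhb 9.20 and 9.21, with all 4 of its probe sets within 0.10 of each other between the clones. The testis gene Ldhc, the neighbour of Ldha on chromosome 7, passed in clone 1 alone at 7.05 against 6.61. Across 10 steps with alternative genes (glucose and lactate transport, hexokinase, phosphofructokinase, aldolase, enolase, pyruvate kinase, lactate dehydrogenase, pyruvate dehydrogenase kinase and prolyl hydroxylase), 22 of 36 measured isoform genes were above background in both clones. Over all genes the share above background in both clones was 43.5%.

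**Figure D2:**
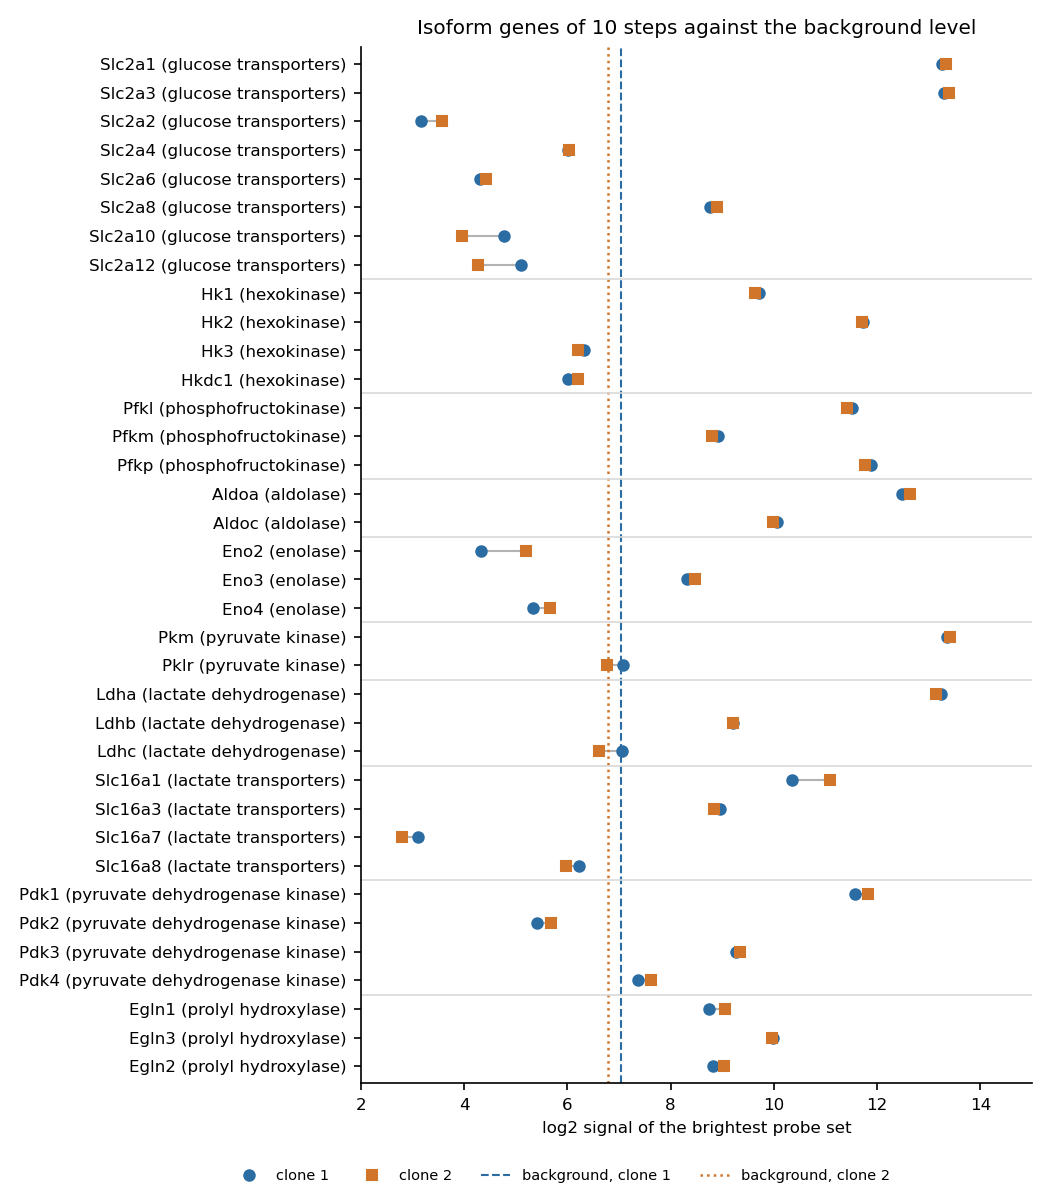
Signal of 36 isoform genes of 10 steps (log2, horizontal axis), grouped by step, with clone 1 as circles, clone 2 as squares and the background levels of 7.04 and 6.78 as vertical lines. In each step at least 1 gene lies above both levels; the genes of phosphofructokinase, aldolase and prolyl hydroxylase that were measured all do.

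The proton-linked lactate carrier Slc16a1 (MCT1) differed most between the clones among the 30 genes above background. Clone 1 gave 10.35 and clone 2 gave 11.08 (10.7 ± 0.52, SD, n = 2), a difference of 0.73 or 1.66-fold. It was the 1 gene of the 30 to differ by 1.5-fold or more, a size reached by 4.20% of 8712 genes on the array that passed in 1 clone or both. Of the 1017 genes whose mean signal lay within 0.5 of it, 4 (0.39%) differed by at least as much. Slc16a1 was singled out as the largest difference of the 30, and this share takes no account of that choice. Its other probe set gave 4.78 and 4.02 and was not above background, so the value rests on 1 probe set. The mean over both probe sets, one of them at background, differed by -0.01. Its promoter, shown above, held 4 matches to the hypoxia letters, 2 of them overlapping in 1 CACGTG, and 1 match to CACCC. At least 1 CACCC was found in 64.6% of the windows of these genes and in 52.0% of all windows. A link between these letters and the difference between the clones was not tested. Slc16a3 (MCT4), the exporter of strongly glycolytic cells, was 8.96 and 8.84, while Slc16a7 and Slc16a8 were not above background. Bsg (basigin), the chaperone that carries these transporters to the membrane, was above background.

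Of the pyruvate dehydrogenase complex, the genes of its catalytic core were above background in both clones and differed by 0.18 or less in size by their brightest probe sets. Pdha1, the X-linked E1 alpha subunit that the kinases phosphorylate, was 11.18 in clone 1 and 11.11 in clone 2, and its second probe set also differed downward, by -0.12. Pdhb, the E1 beta subunit, was 10.96 and 11.14, and Dlat, the E2 subunit, 9.83 and 9.92. Second probe sets differed by 0.14 in Pdhb, where it was not above background, and by 0.10 in Dlat. Dlat has 1 more probe set, above background in clone 2 alone, at 6.71 and 7.25, a difference of 0.54; with its probe sets averaged the difference of Dlat was 0.24. The genes of the shared E3 subunit, Dld, and of the E3-binding protein, Pdhx, were also above background. Pdha2, the testis form of E1 alpha, was not above background.

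Of the 4 kinases that inactivate this complex, 3 were above background in both clones and each had a higher signal in clone 2. Over all genes 43.5% passed in both clones. Of genes above background in 1 clone or both, 64.8% were higher in clone 2, a share that depends on the scaling. Pdk1, the hypoxia-inducible kinase, was 11.58 in clone 1 and 11.83 in clone 2 by its brightest probe set. Its other 2 probe sets above background differed by 0.23 and by 0.68 (8.95 and 9.63, 1.60-fold), so the 3 shared a direction and not a size. The remaining probe set, not above background, gave 3.32 and 3.14. The X-linked Pdk3 was 9.27 and 9.35, and the sign of its difference turned under another scaling (-0.02 to 0.17). Pdk4, the kinase induced by fasting in muscle and liver, was 7.36 and 7.61, close to background. Pdk2, the widely expressed kinase of adult tissues, was 5.41 and 5.68. Of the opposing phosphatase, the regulatory subunit gene Pdpr passed in both clones and the catalytic Pdp1 and Pdp2 in clone 2 alone, where the background was lower.

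Hif1a and the genes of all 3 prolyl hydroxylases that control its protein were above background. Hif1a gave 10.32 in clone 1 against 10.82 in clone 2 (10.57 ± 0.35, SD, n = 2), a difference of 0.50 or 1.41-fold (0.59 after median centring, which takes it past 1.5-fold). Of 1093 genes of like signal, 3.57% differed by at least as much, a share that takes no account of the choice of gene. Its 3 other probe sets, none above background in both clones, differed by 0.21, 0.40 and 0.03. The related factor Epas1 (HIF2A) also had a higher signal in clone 2, at 9.42 and 9.96, a gene singled out after its values were seen. Hif3a, above background in both clones, went the other way, at 7.85 in clone 1 and 7.59 in clone 2. Arnt, the common partner of these factors, and Vhl, which recognises hydroxylated HIF1A, were also above background in both clones. The prolyl hydroxylase Egln1 (PHD2), the main oxygen sensor of this system, was 8.74 and 9.06, and its second probe set differed by 0.44 in the same direction. Egln3 (PHD3) was 9.99 and 9.96 by its brightest probe set, and 7.95 and 8.28 by the other, so its probe sets disagree.

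Targets of the oxygen response did not share a direction. Bnip3, a mitophagy receptor, was 12.13 in clone 1 and 12.15 in clone 2. Vegfa, the angiogenic growth factor, was 8.45 and 8.66 by its brightest probe set and 7.89 and 7.77 by the other. Ankrd37, an ankyrin repeat gene, gave 9.0 and 8.69, a difference of -0.31 that was the lowest of the 30 genes. With the further hypoxia targets, 17 of 22 measured were above background in both clones, beside 43.5% of all genes, and Adm passed in clone 1 alone, where its signal was higher. Of these 18 genes 8 had a higher signal in clone 2 and 10, Adm included, in clone 1, with a median of -0.02; over all genes 64.8% were higher in clone 2, a share that moved from 48.6% to 78.8% with the scaling of the arrays. Among those above background were Ddit4, an inhibitor of mTORC1 signalling, the collagen prolyl hydroxylase P4ha1 and the histone demethylase Kdm3a. Car9, a carbonic anhydrase often used as a marker of hypoxia, was not, and neither were Car12, Lox and Edn1.

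**Figure D3:**
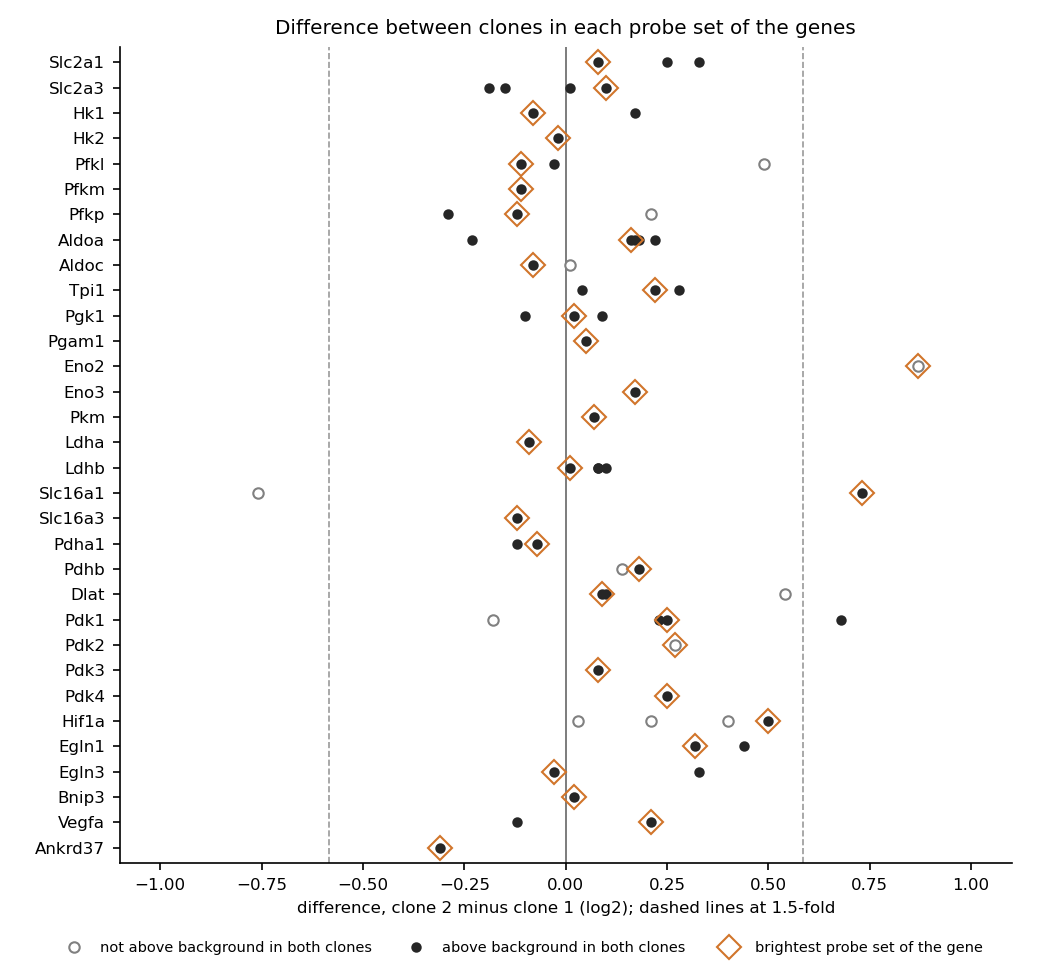
Difference between the clones (clone 2 minus clone 1, log2) in all 68 probe sets of the 32 measured genes; filled circles were above background in both clones, open circles were not, and diamonds mark the brightest probe set of each gene. Dashed lines mark 1.5-fold: 1 probe set of Slc16a1 and 1 of Pdk1 pass them above background, and the open circles beyond them belong to Eno2 (0.87) and Slc16a1 (-0.76).

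Of the 30 genes above background 0 differed by 2-fold between the clones, against 37 of 8712 genes over the array (0.425%). The median difference was 0.06, with a range of -0.31 to 0.73, beside a median of 0.09 over those 8712 genes, each above background in 1 clone or both. In 19 of the 30 genes (63.3%) the signal was higher in clone 2, close to the 64.8% over all genes. This split depends on the scale of the arrays: quantile normalization left 46.7% of the genes higher in clone 2 (48.6% over all genes), loess 53.3% (52.0%) and median centring 80.0% (78.8%). Of the 32 measured genes, 21 kept the sign of their difference under these 3 scalings, Eno2 and Pdk2, not above background, included. Among the 21 were Slc16a1 (0.66 to 0.82), Hif1a (0.44 to 0.59), Pdk1 (0.22 to 0.34), Egln1 (0.20 to 0.41) and Ankrd37 (-0.43 to -0.22). The share of all genes that kept their sign was not counted. Of genes of like signal, 17.6% differed by at least as much as Pdk1, 20.15% as Egln1 and 22.2% as Ankrd37.

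**Figure D4:**
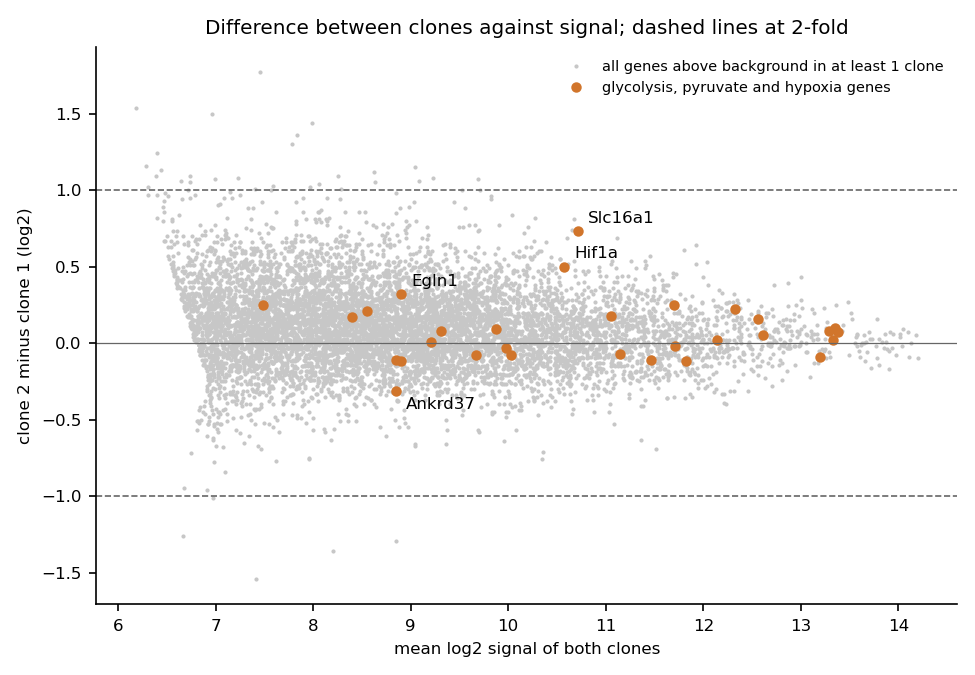
Difference between the clones (clone 2 minus clone 1, log2, vertical axis) against the mean signal of both clones (log2, horizontal axis) for 8712 genes above background in 1 clone or both, grey, with the 30 genes described here in colour and dashed lines at 2-fold. The coloured points stay inside the dashed lines, with Slc16a1 at 0.73 the highest and Ankrd37 at -0.31 the lowest.

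Probe sets of a gene were compared by the sign of their difference between the clones. They read the same RNA on the same arrays, and the sign depends on the scaling. Agreement among them is thus no measure of the precision of a difference between clones. Of the 15 genes with more than 1 probe set above background in both clones, 9 had all of them on the same side of 0, namely Dlat, Egln1, Ldhb, Pdha1, Pdk1, Pfkl, Pfkp, Slc2a1 and Tpi1. The other 6 (Aldoa, Egln3, Hk1, Pgk1, Slc2a3 and Vegfa) had probe sets on both sides. The same count over all genes with several probe sets was not made. In Aldoa 4 of 5 probe sets were higher in clone 2, from 0.16 to 0.22, and the fifth was lower by 0.23 (10.33 and 10.10). Probe sets whose suffix marks them as able to bind several transcripts were the sole reading of 7 of the 32 genes, and 21 of the remaining 25 were above background without them.

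A further list of 77 genes of the same pathways, of which 70 were measured, gave 37 (52.9%) above background in both clones, beside 43.5% of all genes. A further 7 passed in 1 clone and 26 in neither, and the 44 above background in at least 1 clone had a median difference of 0.06. None of these reached 2-fold. In the pentose phosphate pathway, which draws on glucose phosphate to make NADPH and ribose, all 6 measured genes passed, among them the transketolase gene Tkt and the NADPH-yielding Pgd, and 5 of the 6 had a higher signal in clone 2, beside the 64.8% over all genes, which depends on the scaling. The mitochondrial pyruvate carrier subunit Mpc1 and pyruvate carboxylase, Pcx, passed as well. Of the gluconeogenic genes Pck2 and Fbp2 passed, and Pck1, Fbp1 and G6pc did not. Tigar, a phosphatase that removes an activator of phosphofructokinase, passed, and Pfkfb2 and Pfkfb3, which make that activator, did not. Pfkfb4, which makes it too, was 6.97 in clone 1 and 6.89 in clone 2. It passed in clone 2 alone, where the background was lower. The ADP-dependent glucokinase Adpgk was the 1 gene of this list past 1.5-fold, at 6.21 in clone 1 and 7.05 in clone 2. Adpgk was below background in clone 1, so its signal there is a bound. Set against the background level of that array the ratio is at least 1.00-fold.

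**Figure D5:**
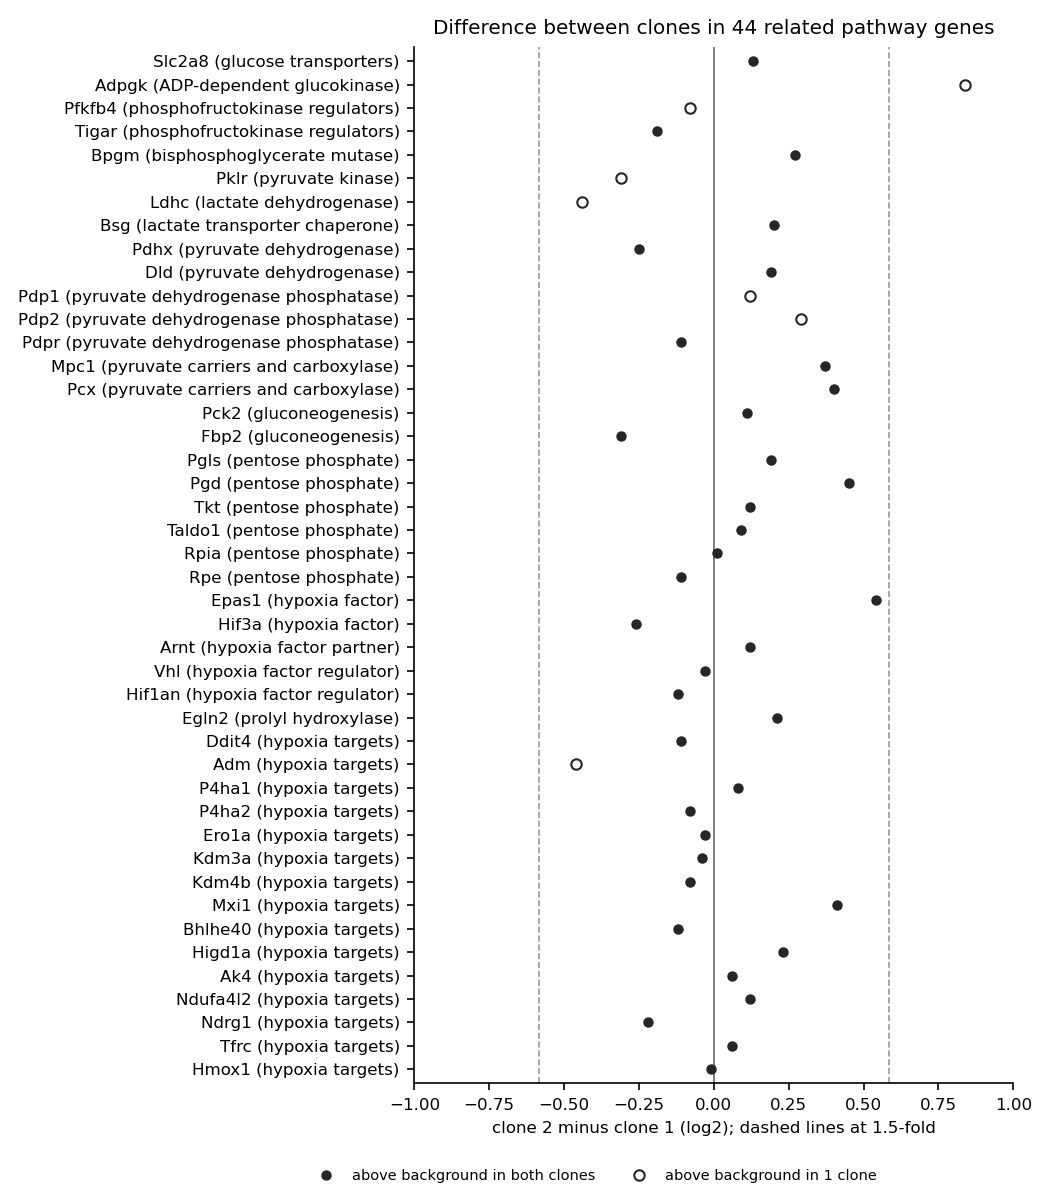
Difference between the clones (clone 2 minus clone 1, log2, horizontal axis) for the 44 further pathway genes above background in at least 1 clone, grouped by role; filled circles passed in both clones, open circles in 1. The dashed lines mark 1.5-fold, which only Adpgk exceeds.

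The 35 genes lie on 16 chromosomes in the RefSeq gene table. Chromosome 6 carries 7 of them (Slc2a3, Hk2, Tpi1, Gapdh, Eno2, Ldhb and Pdk4), and the X chromosome carries Pgk1, Pdha1 and Pdk3. The 5 measured genes of chromosome 6 above background had differences from -0.02 to 0.25, and the 3 X-linked genes from -0.07 to 0.08. These genes are part of the 30 above background, so their ranges could not exceed that of the 30.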

How the data were processed

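The values deposited are log2 signals, 1 for each probe set on each array; the submitters' processing notes name Transcriptome Analysis Console. Background correction, summarisation and normalization were not given in the sources used here. Base 2 follows from the values' range (2.21 to 14.38). Of 45037 probe sets 34945 had 1 gene symbol, 932 several and 9160 none; 34741 matched the RefSeq table of GRCm38.p6 by Entrez identifier, which changed 0 symbols. A gene was represented by its brightest single-symbol probe set. Differences, counts and medians were computed with Python 3.11.15, pandas 2.3.3 and statsmodels 0.14.6 (loess, span 0.3). Only the 2-fold rule and the quantile and loess scalings were checked on simulated data, with planted differences larger than any of the members. With n = 2 in 1 group no test was run; 2 arrays limit the precision. Members were described through all their probe sets. Further pathway genes were given values past 1.5-fold; those of other such genes, and the assignment of genes to isoform steps, were chosen after values were seen. The members, gene lists and settings were chosen with earlier results of these data known. Alternatives were other scalings, background levels, probe set choices and each clone alone. The background percentile, per array, came from 50 listed genes.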

Additional observations from a re-analysis of the deposited data

Results flagged for a closer look

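Probe sets that the annotation pairs with several symbols were not used for the genes above, and 4 of them name a member and were above background in both clones. The Gapdh probe set that also lists 4 other symbols, a pseudogene among them, gave 13.93 in clone 1 and 14.01 in clone 2 (mean 13.97). Those that Gapdh shares with Gapdh-ps15 alone gave 8.66 and 8.93 (mean 8.795) and 7.94 and 7.68 (mean 7.81). The probe set shared by Hk1 with Rpl17 and 4 further symbols gave 13.47 and 13.56 (mean 13.515). The share of each signal that comes from Gapdh or Hk1 was not tested.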

How the results depend on the processing

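The count of members above background in both clones was 30 and ranged from 21 (of the 25 left without probe sets that may bind several transcripts) to 30 under the alternatives; each clone alone gave 30. That of isoform genes was 22, with a range of 16 to 28, and was 24 in clone 1 and 22 in clone 2 alone. The median difference of the members, 0.06, was 0.15 with median centring and -0.003 with quantile normalization. That of the further pathway genes, 0.06, was 0.15 with median centring, -0.02 with quantile and -0.006 with loess normalization, 0.01 with probe sets averaged, 0.11 when the 99th percentile set the background, and 0.0 without probe sets that may bind several transcripts. The difference in Slc16a1, 0.73, was -0.01 when its probe sets, of which 1 was not above background, were averaged. The cause of the other shifts was not tested. The 2-fold count of members was 0 under the alternatives run and 1 by the 1.5-fold rule. For the further genes it was 0, but 1 (Arnt) without those probe sets and 1 (Adpgk) by the 1.5-fold rule. Their count above background, 37, became 57 with background from sensory receptor probe sets, where the levels were 5.44 and 5.07, and it was 40 in clone 1 and 41 in clone 2 alone. The background genes of highest signal were Mylpf (10.53 in clone 1 and 10.48 in clone 2), Myl7, Krt10 and Cela1. Without Mylpf the background levels were 6.87 and 6.49, and without Mylpf, Myl7, Krt10 and Cela1 they were 6.47 and 6.29. These settings, chosen after the data were seen, gave 30 members and 24 isoform genes in each case. The count of further genes rose to 41 and to 44. Signal near background limits Pdk4, Pklr and Ldhc, and others such as Vhl (7.23 in clone 1 and 7.20 in clone 2) and Gata1 (7.09 and 7.06). With the 99th percentile as background (8.52 and 8.50), Eno3 passed in neither clone and Vegfa in clone 2 alone. With background from sensory receptor probe sets, Slc2a4, Hk3, Hkdc1, Slc16a8, Pklr and Ldhc passed in both clones, so the choice of isoforms depends on the level set.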
